A study of Homo sapiens with 12 samples.

Results

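Genes whose symbol is LINC followed by a number are catalogued as long intergenic noncoding RNA genes and carry a number in place of a name. The gene count table of this study holds 2271 such genes, and 122 of them had more than 1 CPM (counts scaled to the same total of gene counts in every library) in 3 or more of the 12 libraries. These 122 LINC genes are described here. A further 941 had counts but did not reach that level, and 1208 had no count in any library. The last genes to enter by the rule were LINC00638, LINC01003 and LINC02605, whose CPM in the library that decided entry, the one ranked 3 from the top, was 1.01, 1.02 and 1.03, and the first to miss it were LINC03060, LINC00921 and LINC01013 with 0.971, 0.896 and 0.892.

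The libraries are poly(A) RNA from BJ-5ta cells, a human fibroblast line immortalized with telomerase (hTERT). Wild-type cells and ΔLEO1 cells, in which the first exons of LEO1 were targeted with CRISPR/Cas9, were grown in 10% serum or held for 10 days in 0.1% serum, which brings fibroblasts into a resting state. The 4 groups have 3 libraries each, numbered 1 to 3 for wild type in 10% serum, 4 to 6 for ΔLEO1 in 10% serum, 7 to 9 for wild type in 0.1% serum and 10 to 12 for ΔLEO1 in 0.1% serum. All ΔLEO1 libraries come from 1 clone, so loss of LEO1 and what is particular to that clone cannot be told apart, and the labels give no word on separate cultures, so p-values measure the spread between these libraries, which may be technical.

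Long noncoding RNAs are transcripts that are capped, often spliced and polyadenylated like messenger RNA but have no long reading frame. Many stay in the nucleus, are made at low levels and are restricted to few cell types, and only a minority has a described function. LEO1 is a subunit of the PAF1 complex, which travels with RNA polymerase II and takes part in elongation, in histone modification and in 3′ end processing, steps that long noncoding RNA genes share with protein-coding genes.

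LEO1 itself had between 682 and 1001 counts in the 6 wild-type libraries and between 23 and 55 in the 6 ΔLEO1 libraries, so every library matched the genotype on its label. Gene counts summed to between 26240632 and 45315560 per library. ERCC spike-in RNA, synthetic transcripts added to the samples, gave 244023 to 1090393 counts. Counts and CPM describe levels within a library, and ERCC-scaled counts (the same scaling to the effective ERCC library size) describe them relative to the spike-in. In bulk RNA, fewer cells that make a transcript and less of it per cell cannot be told apart. The spike-in share was uneven within groups, from 0.625% to 0.932% in ΔLEO1 in 10% serum, 0.785% to 1.45% in wild type in 10% serum, 1.67% to 2.63% in wild type in 0.1% serum and, the widest, 1.88%, 3.24% and 1.09% in libraries 10, 11 and 12. The 9 fibroblast markers summed to 69300 to 105000 CPM. Markers of epithelium reached 1.51 CPM in all and those of endothelium 0.987 CPM. The 4 leukocyte markers summed to 0.823 to 1.91 CPM in wild-type and 1.82 to 7.85 CPM in ΔLEO1 libraries. PTPRC had at most 0.627 CPM in wild-type and 1.37 to 7.10 CPM in ΔLEO1 libraries, CD68 at most 1.45 and 0.98 CPM, and CD3E at most 1 count. The part of these genes in the results was not tested.

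The 122 LINC genes together made up between 0.0523% and 0.0757% of the gene counts. Their sum was 555 ± 27.7 CPM (SD, n = 3) in wild type and 628 ± 6.41 CPM in ΔLEO1 in 10% serum, and 596 ± 37.7 and 665 ± 80.6 CPM in 0.1% serum. Library 12 had the largest sum, 757 CPM, against 608 and 630 CPM in libraries 10 and 11. On the ERCC scale the sums were 56095 ± 18067 and 79580 ± 17727 in 10% serum and 28463 ± 5612 and 39872 ± 25828 in 0.1% serum. The mean sum was thus smaller in low serum on the ERCC scale and not on the CPM scale, and the ΔLEO1 libraries of 0.1% serum spread from 18865 to 68709.

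Single LINC genes were low. Their median over the 12 libraries was 2.09 CPM, close to the 1.79 CPM of the 774 other tested long noncoding RNA genes and far below the 26.2 CPM of the 11882 tested protein-coding genes. The highest mean was 51.4 CPM, for LINC00963, and 15 LINC genes had a mean over 10 CPM. Only 52 of the 122 were over 1 CPM in every library, 23 were over it in ΔLEO1 libraries only and 6 in wild-type libraries only. The spread between libraries of a group was wide: the median coefficient of variation was 37.6% on the ERCC scale and 20.6% in CPM for the LINC genes, against 29.8% and 9.87% for protein-coding genes.

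Per kilobase of annotated exon the 6 highest LINC genes were LINC01615, LINC00839, LINC02945, LINC00674, LINC01397 and LINC01963, at 14, 12.1, 8.36, 7.91, 6.04 and 5.05 CPM per kb. LINC01615 lies on chromosome 6 (GRCh38, chr6:169158092-169162924, minus strand) and has been described in fibroblasts and tumours. It had 12.3, 11.4 and 15.5 CPM in wild type and 23.4, 23.2 and 26.2 CPM in ΔLEO1 in 10% serum, and 5.38, 6.75 and 5.55 CPM and 12.9, 13.1 and 21.8 CPM in 0.1% serum. In CPM every ΔLEO1 library was above every wild-type library of the same serum, and every low-serum library was below every 10% serum library of the same genotype. LINC01963 (chr2:216217045-216220192) is a single-exon gene that lay between 8.21 and 11 CPM in all wild-type libraries, between 16.4 and 20.3 CPM in ΔLEO1 in 10% serum and between 22.2 and 30.1 CPM in ΔLEO1 in 0.1% serum. LINC02945 went the other way, with 5.92 to 8.70 CPM in wild-type and 2.47 to 3.03 CPM in ΔLEO1 libraries. On the ERCC scale LINC01615 and LINC01963 were called in 0.1% serum alone (adjusted p = 0.0822 and 0.119 in 10% serum, edgeR likelihood ratio test), and LINC02945 in neither serum.

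All 122 LINC genes are in the GENCODE 29 annotation of GRCh38, where 96 are typed as lincRNA. The others include 11 processed transcripts, 6 transcribed unprocessed pseudogenes, 3 antisense genes and 1 gene typed as protein-coding, LINC02693. A tested protein-coding gene overlapped 7 of the 122, so not all are intergenic. The median exonic length of the 122 was 3058.5 bases and 22 had a single exon in their longest transcript. Exons of 41 overlapped exons of another gene, 17 on the same strand and 32 on the other strand. The kit keeps strand, but the strand setting of the counting is not given in the sources used here, so reads of overlapping genes may not be told apart. In 23 of the LINC genes over 10% of the stretches of read length (58 bases) also occur in transcripts of another gene, which makes their counts uncertain. Among the genes named by rule below this holds for LINC02882 with 24.7% and LINC01116 with 20.7%.

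Each comparison was read from 1 edgeR likelihood ratio test over 13236 genes with ERCC library sizes, and a gene is called where the Benjamini-Hochberg adjusted p is below 0.05. The first comparison asks which LINC genes the ΔLEO1 clone makes more or less of in 10% serum. Of the 122, 30 were called higher and 10 lower in ΔLEO1 cells, where 4.2% of all tested genes were called higher and 4.64% lower. The quasi-likelihood test called 27 and 9, with all genes at 3.81% and 4.2%. Scaled by TMM on the genes, a normalization that sets the typical gene to no change, 42 were higher and 26 lower, with all genes at 17.7% and 21.8%. A gene entered the list of 122 if 1 group alone was high, and 20 of the 30 higher genes were over 1 CPM in only 1 of the compared groups. Such genes had to differ, so the count is given as a description. Of the 52 LINC genes over 1 CPM in every library, 3 were called higher and 2 lower, near the share of all genes. All tested genes did not have to be over 1 CPM in every library, so these sets are not alike. Of tested genes with a mean under 10 CPM, 8.26% were called higher and 9.85% lower, and of the other long noncoding RNA genes 9.95% and 4.39%.

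**Figure D1:**
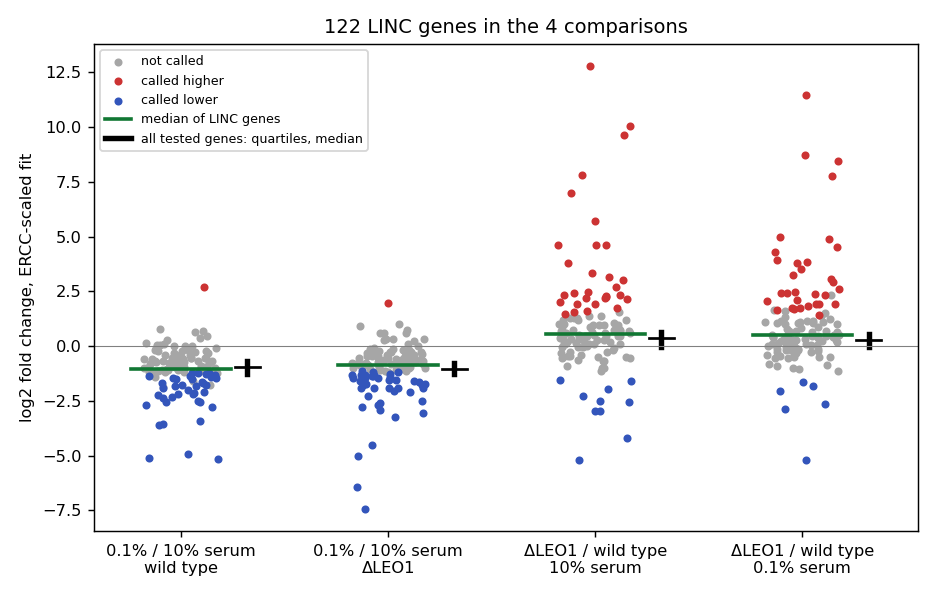
Log2 fold change of each of the 122 LINC genes (points, with sideways scatter for legibility) in the 4 comparisons, from the ERCC-scaled fit, coloured by call; green lines are their medians and black bars the quartiles and median of all tested genes. The points run far upward in both genotype comparisons, to a fitted 12.78 for LINC00355, whose height depends on a small prior count since all wild-type libraries are at 0; in low serum against 10% serum 1 point lies high, LINC01091.

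The far end of this range held 6 LINC genes with 3 counts or fewer in every wild-type library: LINC00355, LINC02882, LINC00547, LINC01192, LINC00540 and LINC02612. All 6 were thus over 1 CPM in ΔLEO1 libraries alone and entered the list through them. They had to differ, and their fold changes and adjusted p-values are given as a description. No LINC gene of the 122 had 3 counts or fewer in every ΔLEO1 library. The 300 bases around the RefSeq start site are shown for 4 of them, those with the highest mean CPM in ΔLEO1 cells among the ones with a RefSeq promoter, so that their base composition can be seen. Each runs 5′ to 3′ along the gene from 250 bases before to 50 bases after the start (GRCh38.p14). Capitals mark the letters of 7 motifs searched on both strands: the TATA box letters TATAAA, the CRE letters TGACGTCA, the AP-1 letters TGANTCA, the E-box letters CACGTG, the CCAAT box, the GC box letters GGGCGG and the ETS letters CCGGAAG.
LINC00355, chr13:64075962-64076261, minus strand: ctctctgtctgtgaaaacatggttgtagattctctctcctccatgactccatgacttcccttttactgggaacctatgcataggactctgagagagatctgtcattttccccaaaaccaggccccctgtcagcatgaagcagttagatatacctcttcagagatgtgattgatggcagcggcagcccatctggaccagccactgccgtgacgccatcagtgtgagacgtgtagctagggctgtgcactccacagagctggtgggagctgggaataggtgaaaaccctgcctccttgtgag
LINC02882, chr12:74292582-74292881, minus strand: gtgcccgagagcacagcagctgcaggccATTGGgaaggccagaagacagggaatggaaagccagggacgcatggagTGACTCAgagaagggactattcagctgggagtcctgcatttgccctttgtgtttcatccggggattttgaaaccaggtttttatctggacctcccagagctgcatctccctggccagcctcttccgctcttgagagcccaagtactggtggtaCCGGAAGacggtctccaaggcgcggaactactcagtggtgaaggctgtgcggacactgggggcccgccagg
LINC00547, chr13:37534690-37534989, plus strand: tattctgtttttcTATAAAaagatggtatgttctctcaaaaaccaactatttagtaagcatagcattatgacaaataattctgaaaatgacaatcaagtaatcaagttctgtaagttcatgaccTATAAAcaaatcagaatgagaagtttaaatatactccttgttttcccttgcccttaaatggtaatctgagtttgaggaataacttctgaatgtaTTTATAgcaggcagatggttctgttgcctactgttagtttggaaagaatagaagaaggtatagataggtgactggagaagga
LINC00540, chr13:22210035-22210334, plus strand: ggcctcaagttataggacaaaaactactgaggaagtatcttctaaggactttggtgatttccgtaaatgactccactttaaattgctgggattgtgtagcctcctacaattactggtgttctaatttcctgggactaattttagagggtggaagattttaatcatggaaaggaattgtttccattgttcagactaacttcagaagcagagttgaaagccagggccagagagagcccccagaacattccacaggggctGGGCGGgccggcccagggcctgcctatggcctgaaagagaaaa
The LINC00355 window holds none of the 7 motifs. The LINC02882 window holds CCAAT in reverse complement, TGANTCA and CCGGAAG, the last 21 bases before the start. The LINC00547 window holds TATAAA on either strand at 3 places and not 1 CG pair, and the LINC00540 window holds GGGCGG just after the start. A match is a description of letters and not a site that was shown to be bound. The starts of LINC00355 and LINC00547 lie within 33 bases of the GENCODE gene start, while those of LINC02882 and LINC00540 lie 109904 and 169310 bases inside the GENCODE gene.

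LINC00355 (chr13:63851197-64076044, 6 exons, first promoter above) is a lincRNA gene in a gene-poor stretch of chromosome 13. It had 0 counts in all 6 wild-type libraries, 506, 593 and 543 counts in ΔLEO1 in 10% serum and 431, 392 and 373 in 0.1% serum. Every ΔLEO1 library stood above 10 CPM and no wild-type library had a read. Against a floor of 3 counts in each wild-type library its level was at least 206-fold higher in 10% serum and at least 137-fold higher in 0.1% serum. NFYAP1, a processed pseudogene inside LINC00355, had 0 counts in wild-type and 23 to 46 in ΔLEO1 libraries. The nearest tested protein-coding gene, PCDH9, which encodes a protocadherin, lies 2226.8 kb away and had 0 or 1 count in wild-type and 296 to 592 in ΔLEO1 libraries.

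LINC01192 (chr3:163127923-163361563) and LINC00540 (chr13:22040975-22276524) also had 0 counts in every wild-type library. LINC01192 had 73, 74 and 105 counts in ΔLEO1 in 10% serum and 56, 60 and 61 in 0.1% serum, at least 31.1-fold and at least 20.6-fold higher. LINC00540 had 58, 75 and 51 counts and 51, 35 and 53 counts, at least 23.2-fold and at least 17.0-fold higher. Within ΔLEO1 cells the CPM ranged from 1.61 to 2.36 for LINC01192 and from 1.08 to 1.66 for LINC00540 over both sera. FGF9, a fibroblast growth factor gene 336.5 kb from LINC00540, was below the level for testing and had 0 counts in wild-type and 13 to 66 in ΔLEO1 libraries. The nearest tested protein-coding genes, MICU2 at 436.8 kb from LINC00540 and NMD3 at 1874.4 kb from LINC01192, were not called in either serum.

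LINC02882 (chr12:74133166-74402535, second promoter above) had 109, 111 and 122 counts in ΔLEO1 and 1, 0 and 2 in wild type in 10% serum. In 0.1% serum it had 101, 98 and 88 counts in ΔLEO1 and 1, 0 and 0 in wild type. The ratio of summed, ERCC-scaled counts was 132-fold in 10% serum, with an exact 95% interval for counting error alone of 45 to 646, and 276-fold in 0.1% serum (49.1 to 10900). Its nearest tested protein-coding gene, ATXN7L3B, 135.3 kb away, was not called in either serum (adjusted p = 0.599 and 0.888, edgeR likelihood ratio test). LINC02612 (chr2:150612381-150635348) had 46, 69 and 86 counts in ΔLEO1 against 2, 2 and 0 in wild type in 10% serum, a ratio of 58.4 (22.5 to 216). It had 13, 21 and 18 against 2, 0 and 0 in 0.1% serum, a ratio of 25.0 (6.58 to 212). RND3, a gene 73.4 kb from LINC02612, was also called higher, with log2 fold changes of 2.19 and 1.59.

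LINC00547 (chr13:37534940-37551536, 5 exons, TATAAA-bearing promoter above) was high in 1 group alone. It had 173, 208 and 268 counts in ΔLEO1 in 10% serum, 1, 2 and 0 in wild type in 10% serum, 0 in all wild-type libraries in 0.1% serum, and 2, 1 and 9 in ΔLEO1 in 0.1% serum. In 10% serum the ratio to wild type was 251 (85.7 to 1220, counting error alone). In 0.1% serum the call (adjusted p = 0.00259, edgeR likelihood ratio test) rested on few counts, most of them in library 12, and without the highest-numbered library of each group adjusted p was 0.223. POSTN, which encodes the matrix protein periostin, lies 11 kb from LINC00547 on the opposite strand. It had 225 to 4194 counts in wild type and 80211 to 116842 in ΔLEO1 in 10% serum, and 2494 to 4719 and 23488 to 30668 in 0.1% serum. POSTN was thus high in both sera in ΔLEO1 cells, whereas LINC00547 was near 0 in the lower serum. LINC02844, singled out after its values were seen, had 57, 58 and 95 counts in ΔLEO1 in 10% serum and at most 6 in any other library. It entered the list through that group alone and thus had to differ.

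**Figure D2:**
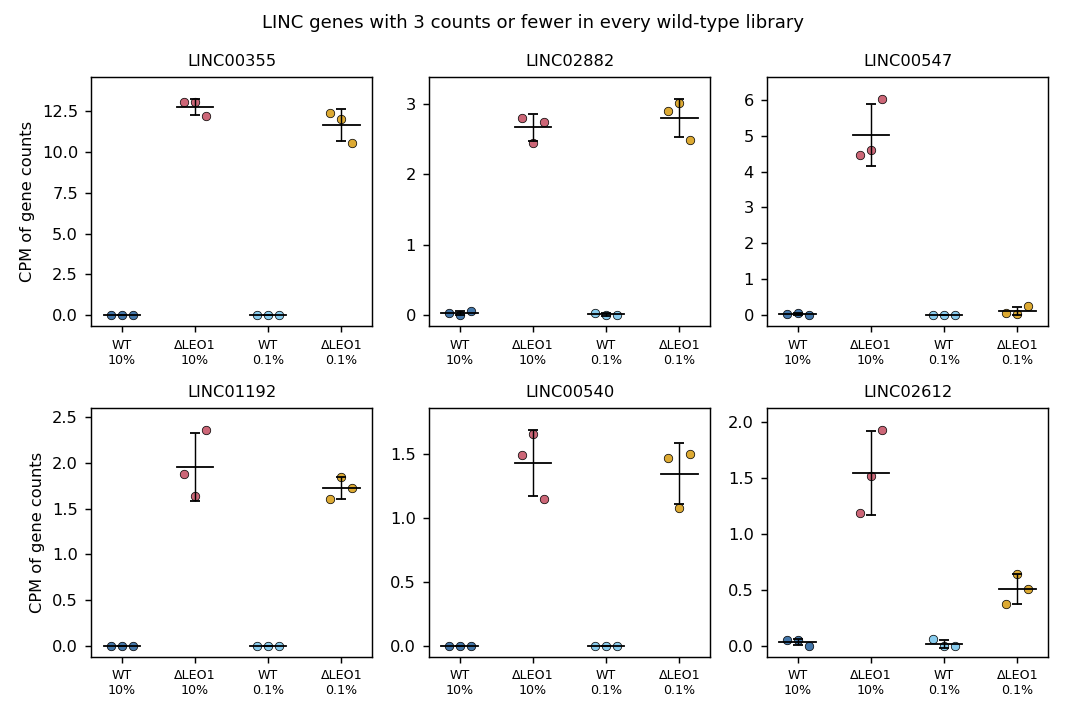
CPM of the 6 LINC genes with 3 counts or fewer in every wild-type library; each point is 1 library, bars are the group mean and SD (n = 3). LINC00355, LINC02882, LINC01192 and LINC00540 sit at similar CPM in ΔLEO1 cells in both sera, LINC02612 is lower and LINC00547 near 0 in 0.1% serum.

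A further 3 LINC genes were named by the rule for their rise in ΔLEO1 cells. LINC01915 (chr18:24628182-24708542) had 0.302, 0.383 and 0.179 CPM in wild type and 7.12, 5.74 and 3.62 CPM in ΔLEO1 in 10% serum, and 0.149, 0.229 and 0.597 CPM against 5.06, 2.98 and 10.7 CPM in 0.1% serum. The groups did not overlap in either serum, and the log2 fold changes were 4.62 ± 0.61 (SE) and 4.89 ± 0.62. All wild-type libraries were under 1 CPM, so LINC01915 entered the list through ΔLEO1 libraries and had to differ. LINC01695 on chromosome 21 rose by 4.63 ± 0.67 in 10% serum and by 3.84 ± 0.73 in 0.1% serum, and had 8, 1 and 3 counts in wild type and 92, 74 and 104 in ΔLEO1 in 10% serum. LINC01224 (chr19:23399233-23416075) rose by 3.31 ± 0.57 and 3.91 ± 0.62, from 14 to 30 counts to 146 to 293 counts in 10% serum. In 10% serum LINC01695 and LINC01224 were likewise over 1 CPM in ΔLEO1 libraries alone, so their fold changes there are a description. ZNF91, a zinc finger repressor gene 3.7 kb from LINC01224 on the same strand, was called higher as well, with log2 fold changes of 1.62 and 1.41, while IMPACT near LINC01915 and N6AMT1 near LINC01695 were not called.

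Fewer LINC genes were lower in ΔLEO1 cells. Of the 10 called in 10% serum 7 were over 1 CPM in only 1 of the compared groups, and of the 6 in 0.1% serum 4. LINC02381 and LINC00683 entered the list through wild-type libraries alone. They thus had to differ, and their values are a description. LINC02381 (chr12:54126098-54142493) had 83, 85 and 144 counts in wild type and 3, 2 and 2 in ΔLEO1 in 10% serum, and 129, 129 and 154 against 3, 6 and 3 in 0.1% serum. The groups were far apart in both sera and the log2 fold change was -5.18 in each (SE 0.71 and 0.68). SMUG1, a uracil-DNA glycosylase gene that LINC02381 overlaps on the opposite strand, had 350 to 434 counts in all libraries of 10% serum and was not called (adjusted p = 0.978 and 0.996, edgeR likelihood ratio test). LINC00683 (chr18:76615212-76625940) had 44, 58 and 64 counts against 1, 3 and 4 in 10% serum and 55, 51 and 110 against 7, 6 and 12 in 0.1% serum, a log2 fold change of -4.19 ± 0.69 and -2.88 ± 0.61.

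LINC01397 (chr1:110082688-110109719), one of the highest LINC genes per kilobase, had 7.18, 7.10 and 5.30 CPM in wild type and 0.954, 0.618 and 0.383 CPM in ΔLEO1 in 10% serum. In 0.1% serum it had 5.64, 5.37 and 7.08 against 0.517, 0.799 and 1.02 CPM. Its log2 fold changes were -2.96 ± 0.56 and -2.62 ± 0.55. In 10% serum LINC01397 was over 1 CPM in wild-type libraries alone, so its fall there is a description. UBL4B, 2.7 kb away on the same strand, changed by -3.02 and -1.87 in the same comparisons. LINC00654 fell by 2.26 and 1.84 on the log2 scale and LINC01515 by 2.55 and 2.07. The 0.1% serum call of LINC01515 was lost without library 10 (adjusted p = 0.203) and with DESeq2 (adjusted p = 0.313).

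LINC01133 (chr1:159961218-159984750) has been studied in epithelial tumours. It had 20.9, 21.8 and 14.1 CPM in wild type and 3.40, 2.74 and 1.69 CPM in ΔLEO1 in 10% serum, a log2 fold change of -2.52 ± 0.51 (adjusted p = 2.84e-05, edgeR likelihood ratio test). In 0.1% serum the groups overlapped, with 12, 13.1 and 31.1 CPM against 5.81, 8.09 and 13.2 CPM, and the log2 fold change of -0.53 ± 0.48 did not pass (adjusted p = 0.757, edgeR likelihood ratio test), though on the TMM scale the change of -1.06 did (adjusted p = 0.0285). The difference between these effects, 1.98 ± 0.69 on the log2 scale, did not pass either (adjusted p = 0.607, edgeR likelihood ratio test).

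**Figure D3:**
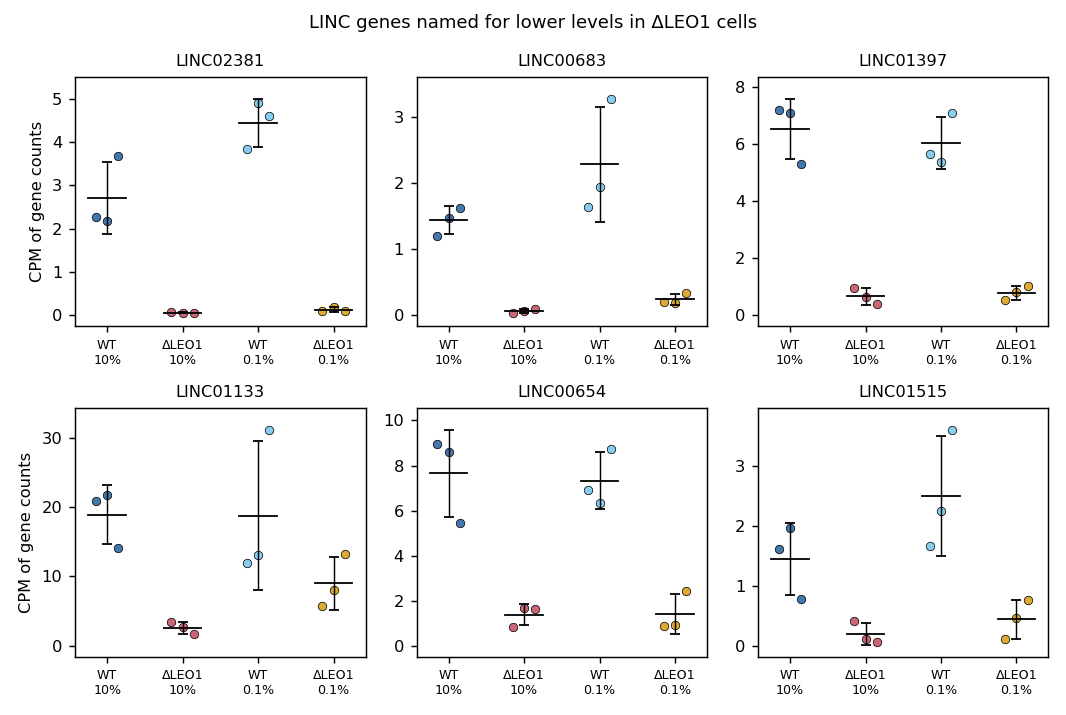
CPM of 6 LINC genes named for lower levels in ΔLEO1 cells; each point is 1 library, bars are the group mean and SD (n = 3). In LINC02381, LINC00683, LINC01397, LINC00654 and LINC01515 every ΔLEO1 library is below every wild-type library of the same serum, and in LINC01133 this holds in 10% serum alone.

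The same comparison in 0.1% serum gave 32 LINC genes higher and 6 lower in ΔLEO1 cells, where 3.85% and 3.59% of all tested genes were called. The quasi-likelihood test gave 29 and 5, with all genes at 3.49% and 3.41%, and TMM on the genes 47 and 20, with all genes at 15.4% and 17.6%. As in 10% serum, 16 of the 32 were over 1 CPM in only 1 of the compared groups, and of the 52 LINC genes over 1 CPM in every library 6 were called higher and 0 lower. These counts moved with the libraries. Without library 12 they were 21 and 12, beside 2.66% and 7.85% of all genes. Without library 7 they were 20 and 5 (2.38% and 2.93%), and without library 10 they were 29 and 3 (3.62% and 2.62%). Leaving out the highest-numbered library of each group gave 22 and 23 (2.86% and 16.6%), and with TMM on the genes as well 50 and 30 (31.2% and 29.7%).

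The genotype comparisons in 10% and in 0.1% serum share no library. Of the LINC genes higher in ΔLEO1 cells, 24 were called in both, which is 80% of the 30 called in 10% serum and 75% of the 32 called in 0.1% serum. For all tested genes these shares were 66.5% and 72.7%. All 6 LINC genes lower in 0.1% serum were among the 10 lower in 10% serum, 60% of those, and none was called in opposite directions. Of all tested genes lower in 10% serum 63% were lower in 0.1% serum, and the reverse share was 81.5%. Across the 122 genes the log2 fold changes had a Pearson r of 0.946 and a Spearman coefficient of 0.873, and across all 13236 tested genes 0.881 and 0.744. All points share the clone and the ERCC scale, and genes are not independent replicates. Of the 122 LINC genes, 23 were over 1 CPM in ΔLEO1 libraries alone and 6 in wild-type libraries alone. Such genes had to differ, so the shared calls and these coefficients were in part set by entry to the list.

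Promoter windows were compared in their CG pairs. RefSeq holds a promoter window for 91 of the 122 LINC genes. The ratio of CG pairs observed to those expected from base composition had a median of 0.433 in these 91 and of 0.579 in all 35114 RefSeq promoters, and 33.0% against 46.8% were CG-rich, defined by a ratio over 0.6 and over 50% G and C. Among the 22 with a window that were called higher in ΔLEO1 cells in 10% serum the median was 0.198 and 2 were CG-rich (9.09%), and among the other 69 it was 0.569 and 28 were CG-rich (40.6%). The RefSeq start lay over 1 kb from the GENCODE start in 8 of the 22 and 11 of the 69, and in the remaining 14 and 58 windows the medians were 0.198 and 0.58, with 2 and 25 CG-rich. TGANTCA, the letters bound by AP-1 factors, was in 7 of the 22 windows (31.8%), in 8 of the 69 (11.6%) and in 7.71% of all promoters. GGGCGG, the letters of a GC box, was in 3 of the 22 (13.6%), in 37 of the 69 (53.6%) and in 45% of all promoters, and CCAAT in 27.3%, 53.6% and 34.6%. These are counts of letters in sets chosen by their calls, and no test was made on them.

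**Figure D4:**
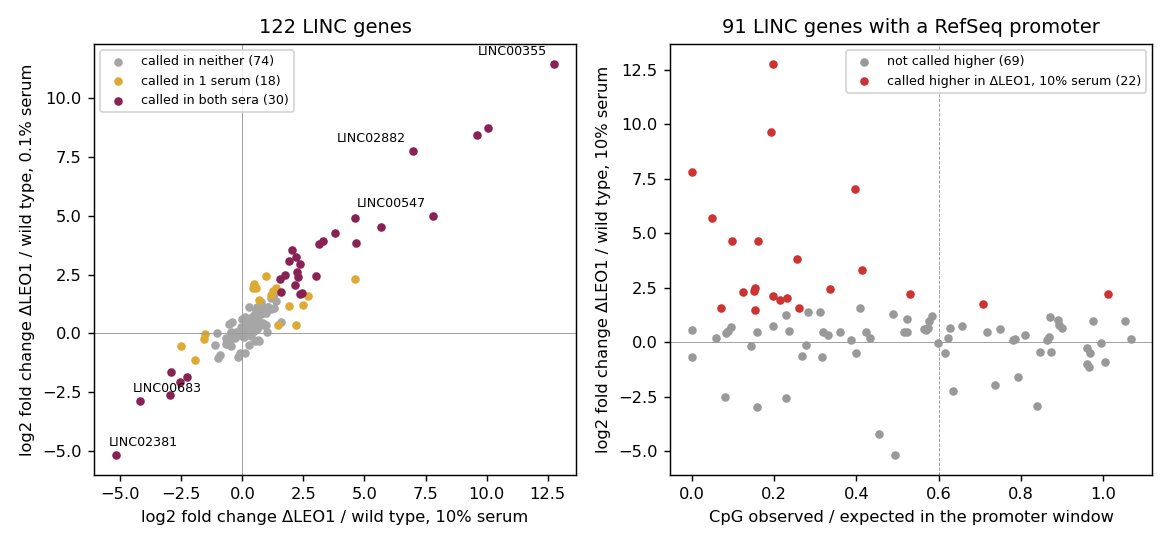
Left, log2 fold change of the 122 LINC genes in ΔLEO1 against wild type in 0.1% serum against that in 10% serum, coloured by call: 30 were called in both sera in the same direction, 18 in 1 and 74 in neither. Right, the 10% serum fold change against the CG observed over expected ratio of the promoter window for the 91 LINC genes that have one; the 22 called higher (red) have a median ratio of 0.198 and the dashed line marks 0.6.

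Most LINC genes with a low-serum response were lower. In wild-type cells 39 of the 122 were called lower and 1 higher in 0.1% than in 10% serum, where 36.1% of all tested genes were called lower and 0.944% higher on the ERCC scale. The share of the LINC genes was near that background, and their median log2 fold change was -1.03 beside -0.97 for all tested genes. Of the 39, 6 were over 1 CPM in only 1 of the compared groups, as was the 1 called higher. By quasi-likelihood 33 were lower and 1 higher, beside 27% and 0.831% of all genes. On the TMM scale, which moved the median of all genes from -0.97 to 0.00, 17 LINC genes were lower and 16 higher, beside 16.6% and 16%. The ERCC count depended on single libraries: 17 were lower without library 7, 24 without library 9, and 19 and 23 without libraries 1 and 2, where 8.67%, 9.79%, 9.1% and 13.5% of all genes were lower. Without libraries 3, 11 and 12 these were 61, 62 and 66, beside 57.1%, 59% and 65% of all genes, and without the highest-numbered library of each group 80, beside 71.8%. The count over all genes moved in the same direction each time.

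In ΔLEO1 cells 42 were called lower and 1 higher in 0.1% serum, beside 47.2% and 0.975% of all tested genes, and the medians were -0.85 and -1.05. Of the 42, 10 were over 1 CPM in only 1 of the compared groups, as was the 1 called higher. By quasi-likelihood 37 were lower and 1 higher, beside 36.4% and 0.793% of all genes. TMM on the genes moved the median of all genes from -1.05 to 0.01 and gave 23 lower and 31 higher, beside 12.9% and 16.5%. No LINC gene was called higher without library 4 or without library 5. Without library 12 the lower count was 92, beside 88.3% of all genes, and without the highest-numbered library of each group 103, beside 92.5%. Without libraries 10, 11 and 4 it was 12, 19 and 16, beside 4.82%, 8.22% and 6.33%. The 2 serum comparisons share no library, and 26 LINC genes were called lower in both, 66.7% of those in wild-type and 61.9% of those in ΔLEO1 cells, where the shares over all tested genes were 78.5% and 59.9%.

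Some LINC genes fell by far more than the typical gene. LINC03069 (chr18:56003613-56191262) had ERCC-scaled counts of 356, 306 and 273 in wild type in 10% serum and 9.74, 11.5 and 8.91 in 0.1% serum, and 1692, 1201 and 1210 against 15.1, 17.5 and 100 in ΔLEO1 cells. Every 10% serum library was above every low-serum library, with log2 fold changes of -4.94 ± 0.63 and -5.03 ± 0.60. It was at the same time higher in ΔLEO1 than in wild-type cells, by 2.13 ± 0.52 in 10% serum. LINC00513 (chr7:130853720-130928649) showed the same pattern, with 131, 110 and 47.8 against 6.95, 18.4 and 23.4 in wild type and 754, 540 and 254 against 57.5, 36.8 and 72.0 in ΔLEO1 cells. Its log2 fold changes were -2.53 ± 0.59 and -3.23 ± 0.57. Among wild-type libraries LINC03069 and LINC00513 were over 1 CPM in 10% serum alone, so their falls in wild-type cells are a description.

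LINC00460 (chr13:106374477-106384315), described in carcinomas as a growth-associated RNA, had 28, 58 and 52 counts in wild type in 10% serum and 7, 4 and 11 in 0.1% serum. In ΔLEO1 cells it had 82, 111 and 93 against 14, 13 and 29. The log2 fold changes were -3.42 ± 0.62 and -3.04 ± 0.58. LINC00460 was over 1 CPM in 10% serum libraries alone and entered the list through them, so its fall is a description. EFNB2, the ephrin gene 105.4 kb away, changed by -2.51 and -1.78 in the same comparisons. LINC00968 (chr8:56496246-56559823) had 11.3, 11 and 15.4 CPM in wild type in 10% serum and 3.42, 2.82 and 7.67 CPM in 0.1% serum, a log2 fold change of -2.56 ± 0.53. In ΔLEO1 cells the serum groups overlapped, and the change of -1.02 ± 0.51 did not pass (adjusted p = 0.0745, edgeR likelihood ratio test). PENK, the proenkephalin gene 49.5 kb away, fell by 2.66 on the log2 scale in wild-type cells. LINC01615 fell by 2.14 in wild-type and 1.59 in ΔLEO1 cells, and LINC00517 by 2.19 and 1.62.

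LINC01091 (chr4:123650267-123930406) was the 1 LINC gene called higher in low serum in both genotypes on the ERCC scale, and TMM on the genes called 10. It had 8, 15 and 8 counts in wild type in 10% serum and 155, 98 and 73 in 0.1% serum, and 7, 6 and 13 against 53, 72 and 59 in ΔLEO1 cells. The groups did not overlap on the ERCC or the CPM scale, and the log2 fold changes were 2.68 ± 0.59 (adjusted p = 0.000163) and 1.98 ± 0.60 (adjusted p = 0.00948, both by the edgeR likelihood ratio test). LINC01091 was over 1 CPM in low serum alone and entered the list through those libraries. It thus had to differ, and these p-values are given as a description. The ΔLEO1 call was lost without library 4 or library 5 (adjusted p = 0.0501 and 0.0562, edgeR likelihood ratio test). SPRY1, a feedback inhibitor of growth factor signalling and the nearest tested protein-coding gene at 246.5 kb, rose by 2.11 and 2.09 on the log2 scale. SPRY1 was lower in ΔLEO1 cells by 2.38 in 10% serum, where LINC01091 had a log2 fold change of -0.11 ± 0.64.

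**Figure D5:**
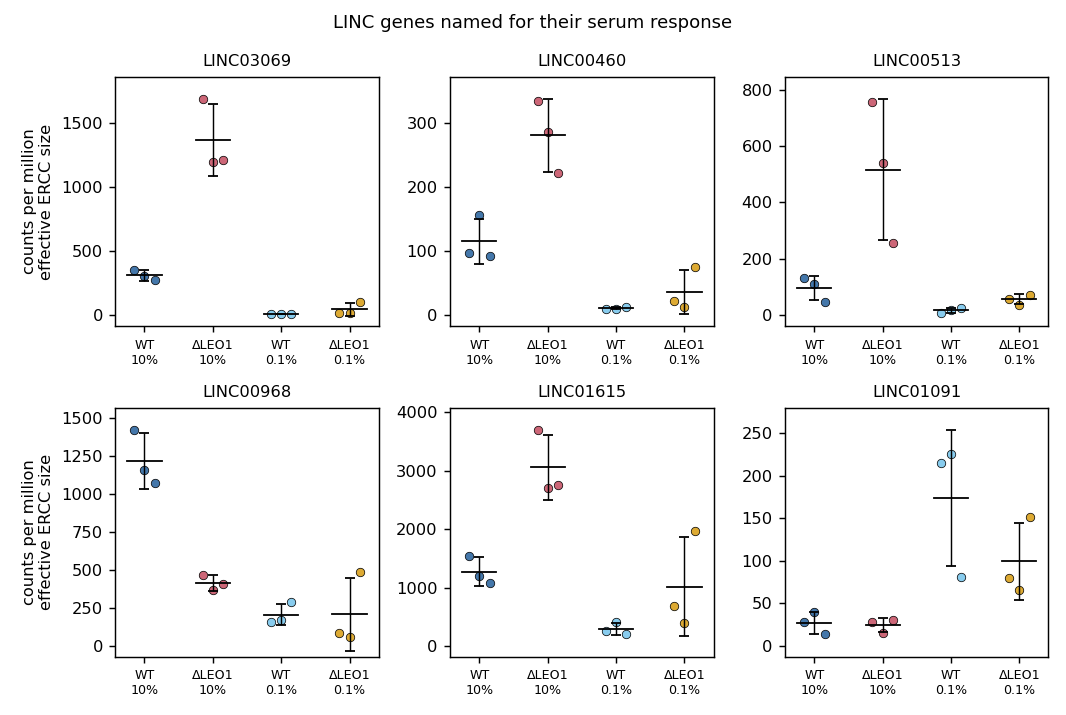
ERCC-scaled counts of 6 LINC genes named for their serum response; each point is 1 library, bars are the group mean and SD (n = 3). LINC03069, LINC00460 and LINC00513 are low in 0.1% serum in both genotypes, LINC01091 is high there, and the highest point of ΔLEO1 cells in 0.1% serum is library 12 in all 6 panels.

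No LINC gene was called for the interaction, the difference between the serum responses of ΔLEO1 and wild-type cells, by the edgeR likelihood ratio test, the quasi-likelihood test or DESeq2 on the ERCC scale. Of all tested genes 0.136% were called higher and 0.0831% lower by the likelihood ratio test, and 0.113% and 0.0604% by quasi-likelihood. At an unadjusted p under 0.05 there were 5 LINC genes by either edgeR test and 2 by DESeq2. That cut is looser than the one for the calls, and the share of all tested genes at it is not given here. The 5 and 2 thus cannot be set against the shares above. TMM on the genes called 4 LINC genes, LINC01133 and LINC00886 higher and LINC00882 and LINC00632 lower, beside 3.06% and 1.02% of all genes. LINC01133 was also called on the ERCC scale without library 11 (adjusted p = 0.031, edgeR likelihood ratio test), and LINC00632 and LINC00630 were called lower without the highest-numbered library of each group. LINC00886, chosen here after its values were seen, had 154, 193 and 92 counts in wild type and 263, 323 and 200 in ΔLEO1 in 10% serum, and 120, 93 and 144 against 421, 396 and 752 in 0.1% serum.

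Of 12 LINC genes listed for a described role in fibroblasts or tumours, 5 were among the 122: LINC01615, LINC01133, LINC00460, LINC00511 and LINC01116. LINC00511, which has 27605 annotated exonic bases, had 4.03, 3.55 and 3.62 CPM in wild type in 10% serum and 14.6, 14.6 and 7.49 CPM in 0.1% serum, and 3.56, 3.57 and 2.43 against 8.65, 9.01 and 3.34 CPM in ΔLEO1 cells. On the ERCC scale the groups overlapped and the log2 fold changes of 0.71 ± 0.50 and -0.26 ± 0.50 did not pass, while on the TMM scale they were 1.63 and 1.09 and passed. LINC01116 was not called in any comparison on the ERCC scale and was lower in ΔLEO1 in 10% serum on the TMM scale (log2 fold change -0.75), with 2.72 to 9.14 CPM over the 12 libraries. LINC01614, LINC01705, LINC00520 and LINC00578 had at most 25 counts in a library and were not tested.

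Changes of neighbouring protein-coding genes were set beside those of the LINC genes. The nearest tested protein-coding gene lay within 50 kb of 58 of the 122 LINC genes, and 7 pairs had divergent starts within 5 kb. Across the 58 near pairs the log2 fold changes of ΔLEO1 against wild type in 10% serum (TMM scale) had a Pearson r of 0.54 and a Spearman coefficient of 0.202, and across the 64 pairs farther apart 0.564 and 0.154. Of the 27 near LINC genes called on that scale, 8 had a neighbour called in the same direction, 6 in the opposite direction and 13 a neighbour that was not called. Of the 41 farther ones these were 10, 7 and 24. On that scale 17.7% of all tested genes were called higher and 21.8% lower in this comparison, so many neighbours are called in any case. The values are descriptions across genes that share libraries and genome position, and some neighbours, such as TCF4, are counted for several LINC genes.

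Other noncoding RNAs and the machinery that processes them were listed for comparison. Of 34 tested long noncoding RNAs that carry a name, among them MALAT1, NEAT1 and NORAD, 3 were called higher and 1 lower in ΔLEO1 cells in 10% serum, with a median log2 fold change of 0.54 beside 0.57 for the LINC genes and 0.35 for all tested genes. In 0.1% serum 0 were higher and 1 lower. Of all genes 4.2% and 4.64% were called in 10% serum and 3.85% and 3.59% in 0.1% serum. TMM on the genes called 9 of the 34 higher and 4 lower in 10% serum and 4 and 5 in 0.1% serum. On that scale, here and for the lists below, 17.7% of all tested genes were higher and 21.8% lower in 10% serum. In 0.1% serum these shares were 15.4% and 17.6%. Of 24 snoRNA host genes none was called in either genotype comparison by either edgeR test or DESeq2 (4 and 0 at an unadjusted p under 0.05 by the likelihood ratio test in 10% and 0.1% serum), and the TMM scale called 4 higher and 4 lower in 10% serum and 1 and 2 in 0.1% serum. Of 27 genes of the nuclear exosome and its cofactors, which degrade many short-lived noncoding transcripts, and of 29 genes of Integrator and 3′ end cleavage, none was called by either edgeR test (2 and 0, and 1 and 0, at an unadjusted p under 0.05), and DESeq2 called 1 exosome gene higher in 10% serum. Their median log2 fold changes were 0.53 and 0.52 in 10% serum and 0.32 and 0.33 in 0.1% serum. The TMM scale called 7 exosome genes higher and 0 lower and 5 Integrator and cleavage genes higher and 2 lower in 10% serum, and in 0.1% serum 5 and 2 of the former and 2 and 3 of the latter.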

How the data were processed

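Poly(A) RNA libraries of 12 samples in 4 groups of 3 were analysed as deposited gene counts. The authors aligned 58-base paired-end reads to GRCh38 with ERCC sequences (STAR 2.7.10a in the submitters' processing notes, after bcl2fastq 2.20.0.422) and counted reads in annotated exons with featureCounts 1.5.1. The annotation release and the strand setting are not given in the sources used here. No value column was left unmapped to a sample (0). Of 60671 genes, 13236 had over 1 CPM in 3 libraries and were tested.

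Group means of all 12 libraries were fitted in 1 model with edgeR 4.0.16 (R 4.3.3), using glmFit and the likelihood ratio test, since the study names the linear model pipeline of edgeR. Effective library sizes were the ERCC totals times TMM factors computed on the ERCC counts, and p-values were Benjamini-Hochberg adjusted over all tested genes. The edgeR quasi-likelihood test was run beside it. DESeq2 1.42.0, TMM and size factors on the genes, no filter, other definitions of the list and the removal of libraries were the alternatives. The scripts were tested on simulated data with 200 changed genes. Depth was 26240632 to 45315560 gene counts per library, and intervals and floors (3 counts) cover counting error only.

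The LINC genes and the other lists were chosen with earlier results of these data known. Genes were named by rule: the 6 highest per kilobase; per comparison and direction the 4 that changed most among those called, at a level of 2 CPM or more in either group and without overlap of ERCC-scaled counts; all with 3 counts or fewer in every library of 1 genotype; and those with a described role. Positions and exons are from GENCODE 29 (GRCh38), and promoters from RefSeq (GRCh38.p14).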

Additional observations from a re-analysis of the deposited data

How the results depend on the processing

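The counts below are LINC genes called higher and lower, with the likelihood ratio test on the ERCC scale as the reference. TMM on the genes gave 16 and 17 in the wild-type serum comparison, 31 and 23 in the ΔLEO1 serum comparison, 26 lower in ΔLEO1 in 10% serum, 20 lower in 0.1% serum and 2 and 2 for the interaction. The shares of all genes on that scale are given above for each comparison. DESeq2 size factors on the genes gave 16 and 16, 31 and 23, 26, 20, and 2 and 2 in the same order. TMM with the quasi-likelihood test, added after the data were seen, gave 14 and 13, 30 and 19, 24, 16, and 1 lower for the interaction. For DESeq2 size factors and TMM with quasi-likelihood the shares of all genes are not given here. No excess over all genes can be read from those counts. Without the highest-numbered library of each group there were 2 and 80 in the wild-type serum comparison, beside 1.5% and 71.8% of all genes. There were 103 lower in the ΔLEO1 serum comparison (92.5%), 23 lower in ΔLEO1 in 0.1% serum (16.6%) and 2 lower for the interaction (0.831%). The same with TMM on the genes, also added later, gave 20 and 40 in the wild-type serum comparison, beside 27.8% and 30.8% of all genes. In the ΔLEO1 serum comparison it gave 38 and 37 (29% and 28.3%). It gave 49 and 31 in ΔLEO1 in 10% serum (31% and 32.5%) and 50 and 30 in 0.1% serum (31.2% and 29.7%). For the interaction it gave 18 and 8, beside 17.3% and 9.85% of all genes. With a mean of at least 1 CPM required, 19 of 98 LINC genes were higher in ΔLEO1 in 10% serum, where 4.2% of all tested genes were. Genes such as LINC00355 reach that mean through ΔLEO1 libraries alone and had to differ, so this count is a description too. The count for LINC genes over 1 CPM in every library, given above, was near the share of all genes. The cause of these shifts was not tested.

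Leaving out 1 library at a time gave 17 to 66 lower in the wild-type and 0 to 1 higher and 12 to 92 lower in the ΔLEO1 serum comparison, 20 to 43 higher and 3 to 12 lower in ΔLEO1 in 0.1% serum and 0 to 1 higher for the interaction. In ΔLEO1 in 10% serum it gave 23 to 38 higher and 7 to 10 lower, beside 2.77% to 8.25% and 3.17% to 6.2% of all genes. For ΔLEO1 in 0.1% serum the shares of all genes ran from 2.38% to 10.1% higher and from 2.62% to 7.85% lower. Of 25 fold changes of genes named for a comparison, 1 lost its call under any alternative run, that of LINC01515 with DESeq2 and without library 10, and 0 changed direction. These 25 were picked as called, large changes without overlap, so their stability was in part set by that choice. Outside them, the calls of LINC01091 in the ΔLEO1 serum comparison and of LINC00547 in 0.1% serum were lost as given above. No paired analysis was possible because the libraries carry running numbers from 1 to 12 and no number is shared between groups. Low counts limit most LINC genes, whose median was 2.09 CPM.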
